A study of Mus musculus with 44 samples.

Results

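The genes described here mark T cells: 32 genes that encode the T cell receptor complex, its coreceptors, the costimulatory and inhibitory receptors, the proximal signalling proteins, the lineage transcription factors and the homing and cytokine receptors of the lineage. They were chosen by name, by a rule that used no measured value but was set with earlier results of these data known. A gene was measured by probe sets whose annotation held exactly 1 of these symbols, and where a gene had several, the probe set with the highest mean log2 intensity over the 44 arrays stood for it. Of the 32 genes, 30 were measured in this way, among 18193 genes in all. Lck and Tcf7 had no such probe set and were not analysed here.

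The arrays held RNA of spleen, bone marrow and liver of B6C3F1 mice, a hybrid laboratory strain, that had received the glycol ether solvent 2-butoxyethanol (2BE) or vehicle. In spleen there were 4 2BE and 4 vehicle arrays at 4 h and 5 2BE and 5 vehicle arrays at 7 d. In bone marrow there were 5 2BE and 5 vehicle arrays at 7 d, and in liver 4 2BE and 3 vehicle arrays at 4 h and 5 2BE and 4 vehicle arrays at 7 d. The groups follow the sample titles, since another label field names the treatment reduced oxygen for 2BE and control for vehicle. All mice were killed under ketamine and acepromazine anesthesia, and each tissue was a bulk piece: part of a liver lobe, part of a spleen section or the marrow of a humerus. The sources used here give no dose, route, sex or age, and they do not say which arrays came from separate mice, so p-values measure only the spread between these samples.

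A mature T cell recognises peptide on MHC molecules through an antigen receptor that reaches the cell surface only with the CD3 gamma, delta, epsilon and zeta chains. CD4 or CD8 binds the MHC molecule at the same time and brings the kinase Lck to the complex, which then recruits ZAP-70, LAT and further adaptors. The spleen holds T cells in the sheaths around its arterioles, whereas bone marrow and liver hold smaller numbers of them.

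The genes of the CD3 gamma, delta and epsilon chains lie beside each other on mouse chromosome 9, and those of CD28, CTLA-4 and ICOS lie together on chromosome 1. Cd3g and Cd3d are read outwards from start sites that are 1354 bases apart. The 250 bases before the starts of the 3 CD3 genes are shown because these genes moved together in the spleen, and those of Ctla4 because this gene moved in opposite directions at the 2 times. They are RefSeq sequences of build GRCm38.p6, 5′ to 3′ on the strand of the gene, and capitals mark the letters GGAAA, the core recognised by NFAT factors, or its reverse complement TTTCC.
Cd3g, chr9:44980432-44980681, minus strand: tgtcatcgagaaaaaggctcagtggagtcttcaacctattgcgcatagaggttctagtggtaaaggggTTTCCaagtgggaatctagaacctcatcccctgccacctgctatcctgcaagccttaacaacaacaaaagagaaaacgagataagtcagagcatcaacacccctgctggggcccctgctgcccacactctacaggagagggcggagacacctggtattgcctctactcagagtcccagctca
Cd3d, chr9:44981536-44981785, plus strand: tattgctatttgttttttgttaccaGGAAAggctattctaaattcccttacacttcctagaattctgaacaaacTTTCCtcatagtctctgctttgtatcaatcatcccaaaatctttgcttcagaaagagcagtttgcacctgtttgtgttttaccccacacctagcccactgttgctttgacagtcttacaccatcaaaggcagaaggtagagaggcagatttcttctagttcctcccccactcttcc
Cd3e, chr9:45009612-45009861, minus strand: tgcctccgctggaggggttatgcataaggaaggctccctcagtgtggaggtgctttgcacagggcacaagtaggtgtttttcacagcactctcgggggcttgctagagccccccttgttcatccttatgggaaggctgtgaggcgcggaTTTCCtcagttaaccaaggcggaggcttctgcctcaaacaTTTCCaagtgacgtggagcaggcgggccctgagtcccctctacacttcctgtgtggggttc
Ctla4, chr1:60908775-60909024, plus strand: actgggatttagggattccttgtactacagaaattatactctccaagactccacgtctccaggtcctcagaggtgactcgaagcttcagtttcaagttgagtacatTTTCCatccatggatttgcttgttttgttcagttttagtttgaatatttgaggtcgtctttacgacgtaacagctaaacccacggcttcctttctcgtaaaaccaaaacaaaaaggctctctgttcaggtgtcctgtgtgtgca
The Cd3d and Cd3e stretches held 2 matches each, and those of Cd3g and Ctla4 held 1 each. Promoters were listed for 21 of the 32 genes, as 28 stretches, and 20 of them (71.4%) held GGAAA on either strand, against 55.6% of all 32851 stretches. The RUNX core TGTGGT was found in 4 of the 28 (14.3%), against 14.0% of all, and the ETS core GGAAG, which like the others was searched on both strands and shares 4 letters with the NFAT core, in 23 (82.1%), against 64.1% of all. A match is a run of letters and not a measured binding site.

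Values below are the deposited intensities, on a linear scale in arbitrary units, and levels are compared only within a tissue and time. Fold changes are 2BE over vehicle on log2(intensity + 1), with limma's standard error (SE). A gene is called lower or higher where the limma p-value, adjusted by the Benjamini-Hochberg method over the 18193 genes, was under 0.05. In spleen, 26 of the 30 genes exceeded the median of all probe sets in vehicle arrays at 4 h and 24 did so at 7 d. The same count was 14 in marrow, 10 in liver at 4 h and 9 in liver at 7 d. Foxp3, Il2ra, Gata3 and Trat1 were below the median in spleen at both times.

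In the spleen at 7 d, 25 of the 30 T cell genes were lower with 2BE and 2 were higher. The median log2 fold change of the 30 was −1.08, against 0.051 over all genes. Calls were common in this comparison: 64.4% of all genes were called, 32% lower and 32.4% higher. In 24 of the 30 genes every 2BE array lay below every vehicle array, as did 26.7% of all genes. RNA came from bulk tissue, so fewer T cells, less RNA per T cell and a share thinned by other cells cannot be told apart.

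Among the CD3 chains, Cd3g fell furthest. Cd3g, the gamma chain, read 381, 136, 442, 383 and 531 in the 2BE spleens, against 1392, 1361, 1162, 1131 and 1206 in the vehicle spleens. The highest 2BE array was under all vehicle arrays by a wide margin, and the fall was 3.63-fold (log2 −1.86 ± 0.27 SE, n = 5 each, limma adjusted p = 7.68e-06). Cd3d, the delta chain, read 711, 384, 840, 709 and 987 in the 2BE spleens, against 2082, 2257, 1889, 2110 and 2018 in the vehicle spleens. It was the brightest CD3 probe set, and it fell 2.98-fold (log2 −1.57 ± 0.20, adjusted p = 1.97e-06), with no overlap of the groups. Cd247, the zeta chain that carries most of the signalling motifs, read 217, 101, 228, 205 and 228 in the 2BE spleens and 542, 531, 455, 487 and 481 in the vehicle spleens, a 2.64-fold fall (log2 −1.40 ± 0.19, adjusted p = 5.07e-06). On these probe sets Cd3e, the epsilon chain, fell least of the 4, by 1.87-fold (log2 −0.90 ± 0.14, adjusted p = 2.87e-05). Its values were 758, 498, 782, 858 and 817 with 2BE, against 1488, 1513, 1232, 1292 and 1319 with vehicle. The order of Cd3e and Cd247 depends on the processing. Across the alternative settings given below, the log2 fold change of Cd247, which has 4 probe sets, ran from −1.47 to −0.552. That of Cd3e ran from −0.96 to −0.764. Both were called lower in each setting, but not every probe set of Cd247 was called. In each of the 4 chains the lowest value of all was that of 2BE replicate 2.

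The coreceptor genes Cd4 and Cd8b1 were also lower. Cd4, the coreceptor of helper and regulatory T cells, read 414, 363, 434, 400 and 453 in the 2BE spleens, against 760, 872, 804, 766 and 795 in the vehicle spleens. The 2BE arrays lay close together and under all vehicle arrays, a 1.94-fold fall (log2 −0.95 ± 0.12, adjusted p = 1.26e-06). Cd8b1, the beta chain of the cytotoxic T cell coreceptor, read 271, 146, 279, 327 and 392 with 2BE, against 776, 645, 580, 595 and 586 with vehicle, a 2.34-fold fall (log2 −1.23 ± 0.21, adjusted p = 5.74e-05). Cd8a, the alpha chain, ran the other way on the probe set that stood for it. It read 238, 300, 218, 264 and 192 with 2BE, against 135, 177, 187, 190 and 171 with vehicle, and was 1.40-fold higher (log2 0.49 ± 0.11, adjusted p = 0.00101), with no overlap.

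That rise of Cd8a was not shared by its other probe sets. The name of the chosen one ends in x_at, with which the maker marks probe sets that may match other transcripts. Of the 5 probe sets of Cd8a, 3 were lower in the same spleens, with log2 fold changes of −0.996, −1.12 and −1.14, and 1 showed −0.037 and was not called. Zap70, the kinase that binds the phosphorylated CD3 chains, had the same split. Its chosen probe set read 693, 736, 677, 721 and 590 with 2BE, against 502, 535, 490, 538 and 513 with vehicle (log2 0.40 ± 0.066, adjusted p = 3.40e-05). Another of its 3 probe sets was lower at −1.03, and the last, at 0.0025, was not called. Trat1, a transmembrane adaptor of the receptor complex, showed −0.12 ± 0.094 on the chosen probe set (adjusted p = 0.256) and −1.29 on its other one, which was called lower.

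Over all 55 probe sets of the 30 genes, 43 were lower and 2 were higher in the spleen at 7 d, and 28 of the 30 genes had at least 1 probe set called lower. Of all 34945 probe sets with 1 symbol, 30.4% were lower and 30.3% higher, and 36.1% of all genes had at least 1 called lower. The 2 higher ones were those of Cd8a and Zap70. Probe sets of 1 gene share its transcripts, so they are not independent measurements. Of the 13 genes with several probe sets, Cd28, Bcl11b, Il2rb, Cd4, Themis and Icos were lower on each of theirs. Il2ra and Ubash3a were called on none. Some probe sets of Cd247 and Skap1 were not called, though each of these 2 genes had at least 1 called lower. Across the alternative settings given below, the log2 fold change of Skap1 ran from −1.41 to −0.784, called lower in each.

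**Figure D1:**
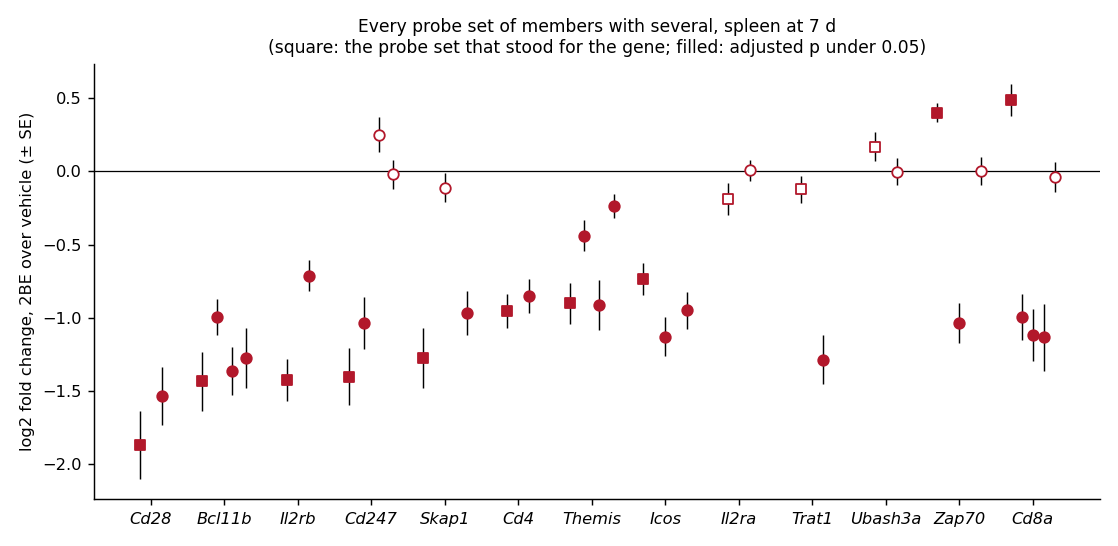
Log2 fold change of 2BE over vehicle in the spleen at 7 d (vertical axis, ± SE) for each probe set of the 13 T cell genes with several. Squares mark the probe set that stood for the gene and filled symbols an adjusted p under 0.05; the squares of Cd8a and Zap70 lie above 0 while other probe sets of both genes lie near −1.

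The costimulatory and adhesion receptors included the largest fall of all 30 genes. Cd28, the receptor that gives naive T cells their second signal, read 174, 73.0, 220, 160 and 257 in the 2BE spleens, against 587, 652, 588, 580 and 592 in the vehicle spleens. It fell 3.66-fold (log2 −1.87 ± 0.23, adjusted p = 1.79e-06). The vehicle arrays were tightly grouped and the 2BE arrays were spread over a wider range. Cd2, an adhesion receptor of T, NK and B lineage cells, read 427, 248, 596, 511 and 710 with 2BE, against 1664, 1454, 1510, 1486 and 1423 with vehicle, a 3.20-fold fall (log2 −1.68 ± 0.22, adjusted p = 2.52e-06). Cd27, a costimulatory receptor of the TNF receptor family, fell 2.86-fold, with 126, 46.4, 156, 121 and 168 in the 2BE spleens and 325, 336, 306, 327 and 337 in the vehicle spleens (log2 −1.52 ± 0.26, adjusted p = 5.40e-05). Icos, an inducible receptor related to CD28, showed a smaller fall (log2 −0.74 ± 0.11, adjusted p = 1.54e-05). Ctla4, which competes with CD28 for its ligands, was 1.59-fold lower (log2 −0.67 ± 0.13, adjusted p = 0.00017).

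Surface glycoproteins of the lineage followed. Thy1, a classical pan-T cell marker of the mouse, read 368, 164, 421, 385 and 477 in the 2BE spleens, against 1035, 1025, 959, 1014 and 903 in the vehicle spleens, and fell 2.88-fold (log2 −1.52 ± 0.21, adjusted p = 5.39e-06). Cd5, a brake on receptor signalling that B-1 cells also carry, read 175, 104, 217, 189 and 237 with 2BE, against 452, 499, 387, 433 and 429 with vehicle (2.46-fold, log2 −1.30 ± 0.18, adjusted p = 5.33e-06). The related receptor gene Cd6 fell 1.89-fold (log2 −0.92 ± 0.15, adjusted p = 4.56e-05). None of the 3 had overlapping groups.

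Of the signalling proteins, the adaptor gene Lat fell 2.14-fold (log2 −1.09 ± 0.13, adjusted p = 9.63e-07) and the kinase gene Prkcq, which links the receptor to NF-kB, fell 2.09-fold (log2 −1.06 ± 0.13, adjusted p = 9.59e-07). Skap1, an adaptor in integrin activation, read 158, 78.3, 171, 163 and 221 in the 2BE spleens, against 386, 412, 326, 342 and 363 in the vehicle spleens, a 2.42-fold fall (log2 −1.27 ± 0.21, adjusted p = 3.12e-05). Txk, a Tec family kinase, fell 2.11-fold (log2 −1.08 ± 0.17) and Themis, an adaptor needed for thymocyte selection, fell 1.87-fold (log2 −0.90 ± 0.14). Ubash3a, a phosphatase that dampens receptor signalling, showed 0.17 ± 0.097 and was not called (adjusted p = 0.135).

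Among the transcription factors, Bcl11b, which commits and keeps cells to the T lineage, fell 2.71-fold. It read 323, 160, 396, 273 and 395 with 2BE, against 780, 846, 766, 808 and 789 with vehicle (log2 −1.44 ± 0.20, adjusted p = 7.29e-06). Gata3, the factor of helper cells that make type 2 cytokines, was 1.54-fold lower on a dim probe set (log2 −0.63 ± 0.14, adjusted p = 0.000683). Foxp3, the factor of regulatory T cells, read 30.4, 24.5, 25.7, 26.1 and 27.2 in the 2BE spleens, against 36.2, 32.02, 34.6, 38.7 and 28.8 in the vehicle spleens. The lower quartile over all probe sets was 38.9, above each of these values, and the groups overlapped. The call on Foxp3 (log2 −0.33 ± 0.11, adjusted p = 0.014) therefore concerns a signal near the floor of the arrays.

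The homing and cytokine receptors divided by gene. Ccr7, which guides naive T cells into the T zones, read 325, 219, 456, 386 and 634 in the 2BE spleens, against 900, 959, 995, 934 and 876 in the vehicle spleens (2.45-fold, log2 −1.29 ± 0.22, adjusted p = 6.03e-05). S1pr1, through which lymphocytes leave lymphoid organs, fell 2.10-fold (log2 −1.07 ± 0.22, adjusted p = 0.000387). Il2rb, the beta chain of the receptors for interleukins 2 and 15 on memory T and NK cells, had a small SE for its size. It read 159, 130, 220, 193 and 256 with 2BE, against 536, 451, 514, 498 and 509 with vehicle (2.68-fold, log2 −1.42 ± 0.14, adjusted p = 1.86e-07). Il2ra, the alpha chain of the interleukin 2 receptor, carried by regulatory and newly activated T cells, showed −0.19 ± 0.11 and was not called (adjusted p = 0.133).

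**Figure D2:**
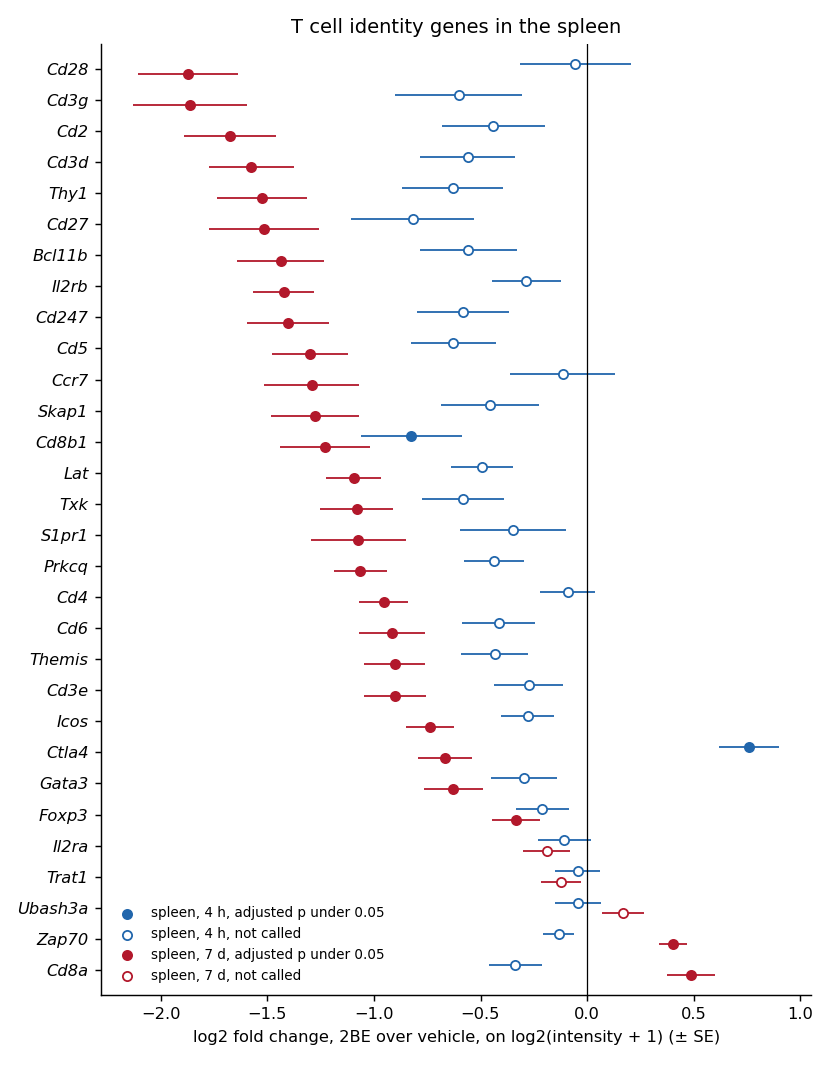
Log2 fold change of 2BE over vehicle (horizontal axis, ± SE) of the 30 measured T cell genes in the spleen at 4 h (blue) and at 7 d (red); filled points had an adjusted p under 0.05. At 7 d 25 genes were lower and 2 higher, and at 4 h 1 was lower (Cd8b1) and 1 higher (Ctla4).

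The 2BE spleens at 7 d differed among themselves. Replicate 2 held the lowest of the 5 values in 23 of the 30 genes and replicate 5 the highest in 19. The mean log2 intensity of 11 B cell genes was also lowest in 2BE replicate 2 (9.43) and highest in 2BE replicate 5 (10.73). That of 10 erythroid genes ran from 11.82 to 12.12 in the 2BE spleens, lowest in replicate 5, and from 8.57 to 9.96 in the vehicle spleens. When each of the 10 arrays was left out in turn, 25 genes were called lower and 2 higher each time.

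Other cell types moved in the same spleens. B cell genes were lower in 11 of 11 measured (median log2 −1.63) and NK cell genes in 8 of 8 (median −1.15). Erythroid genes were higher in 10 of 10 (median 2.59), among them Epb42, of the red cell membrane skeleton, at 3.81 ± 0.27, and Klf1, the master factor of the lineage, at 3.20 ± 0.30. Dendritic cell genes were lower in 5 of 6 (median −0.83), and macrophage genes lower in 7 and higher in 1 of 12 (median −0.36). The summed intensity of the 30 T cell genes was 5843 to 10706 in the 2BE spleens and 17826 to 19356 in the vehicle spleens. That of the 10 erythroid genes was 75124 to 90753 with 2BE and 9254 to 23830 with vehicle. The 3 adipocyte genes summed to 325 to 412 in the 2BE spleens, against 344 to 7661 in the vehicle spleens, where replicates 2, 4 and 5 were high. The part of these shifts in the fall of the T cell genes was not tested.

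Other genes of the T cell programme were examined in 3 further lists. Of 20 measured partners of receptor signalling, 17 were lower and 2 higher, with a median of −1.02. Sh2d1a, the SLAM adaptor SAP, showed −1.61 ± 0.21, Rasgrp1, which activates Ras, −1.51 ± 0.18, Vav1, an exchange factor, −1.48 ± 0.16, and the transcription factor gene Nfatc1 −1.40 ± 0.18. Of 21 genes of T cell differentiation and homing, 20 were lower and 0 higher, with a median of −1.24. Tbx21, the factor of type 1 helper and NK cells, showed −1.73 ± 0.17, Klf2, a quiescence factor that drives S1pr1, −1.60 ± 0.18, Satb1, a chromatin organiser, −1.51 ± 0.20, and Cxcr5, a follicle homing receptor that B cells also carry, −1.51 ± 0.22. Of 16 activation and effector genes, 9 were lower and 2 higher, with a median of −0.43. The early activation marker Cd69 was lower (−1.35 ± 0.19), as was the checkpoint receptor gene Havcr2 (−1.39 ± 0.14). Many of these genes are expressed by B, NK or myeloid cells too.

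**Figure D3:**
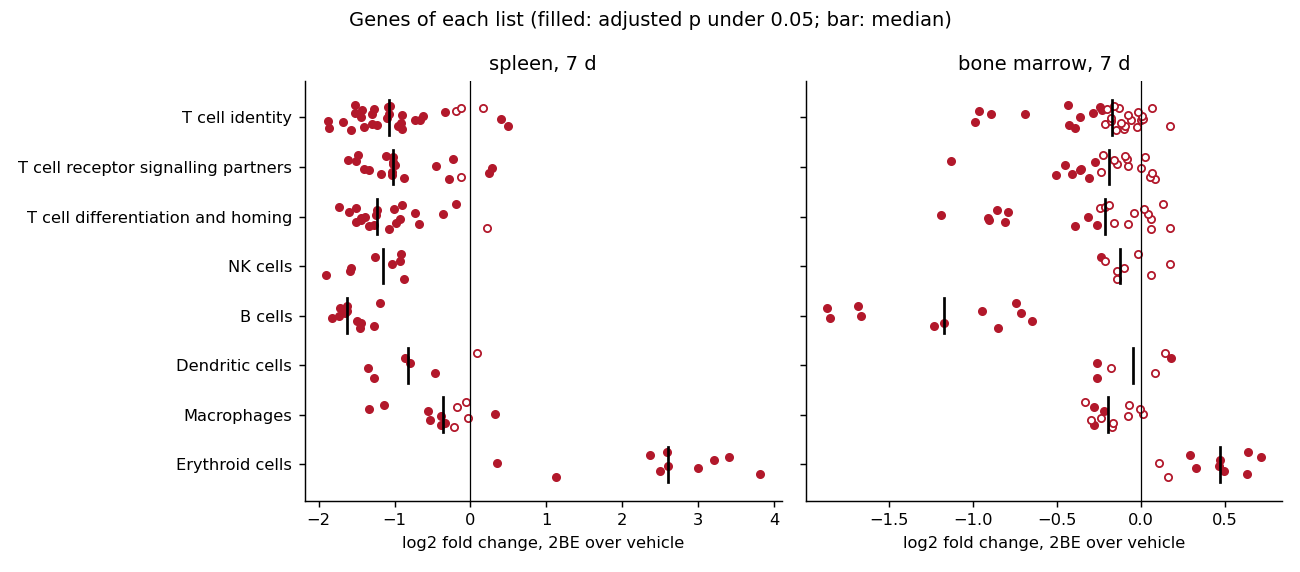
Log2 fold change of 2BE over vehicle (horizontal axes, which differ in scale) of each gene in 8 lists, in the spleen (left) and bone marrow (right) at 7 d. Filled points had an adjusted p under 0.05 and bars are list medians; in the spleen the T, NK and B cell genes lie mostly below 0 and the erythroid genes above it.

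Whether T cell subsets were affected unequally was asked with 6 ratios of 2 genes within an array, each tested at both times by a two-sided exact permutation test, with p-values adjusted over the 12 tests. At 7 d the log2 ratio of Foxp3 to Cd4 averaged −3.90 ± 0.13 with 2BE and −4.52 ± 0.21 with vehicle (SD, n = 5 each), a difference of 0.62 (exact p = 0.00794, adjusted p = 0.0476). That ratio has a near-floor signal on top. The ratio of Cd8a to Cd4 was 1.44 higher with 2BE (exact p = 0.00794, adjusted p = 0.0476), but it rests on the Cd8a probe set that rose. The ratio of Cd8b1 to Cd4 was −0.61 ± 0.43 with 2BE and −0.34 ± 0.21 with vehicle, and this difference did not pass (exact p = 0.254, adjusted p = 0.386). Neither did the ratios of Ccr7 to Cd3e (adjusted p = 0.214), Il2ra to Foxp3 (adjusted p = 0.286) or Cd4 to Cd3e (adjusted p = 0.667). The smallest p that 5 arrays against 5 allow is 0.00794.

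In the spleen at 4 h, 1 of the 30 genes was lower and 1 was higher, where 5.16% of all genes were called, 1.85% lower and 3.31% higher. Ctla4 rose: it read 198, 337, 205 and 322 in the 2BE spleens, against 155, 135, 155 and 164 in the vehicle spleens. The 2BE arrays lay at 2 levels, all above the vehicle arrays, and the rise was 1.69-fold (log2 0.76 ± 0.14, n = 4 each, limma adjusted p = 0.00272). It was not called in a fit of these 8 arrays alone (adjusted p = 0.0626); over all other settings its adjusted p ran from 0.000651 to that value. Cd8b1 fell: it read 331, 348, 208 and 257 with 2BE, against 576, 635, 400 and 416 with vehicle (1.77-fold, log2 −0.82 ± 0.24, adjusted p = 0.049). Its call was lost under several other settings, where the adjusted p ran from 0.0527 to 0.158.

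The other 28 genes at 4 h were not called, though 29 of the 30, all but Ctla4, had a fold change below 0. The same held for 10770 of all 18193 genes. The median of the 30 was −0.38, against −0.032 over all genes. Many of the 30 were lowest or highest in the same arrays, as given below, so the 29 are not independent observations. Cd3d read 1097, 1362, 750 and 916 in the 2BE spleens, against 1623, 1809, 1150 and 1436 in the vehicle spleens (log2 −0.56 ± 0.22, adjusted p = 0.175). Cd3g read 527, 642, 346 and 429 with 2BE, against 736, 949, 554 and 691 with vehicle (log2 −0.60 ± 0.30, adjusted p = 0.291). In both chains the groups overlapped. Cd247 read 268, 267, 170 and 208 with 2BE, against 360, 434, 264 and 311 with vehicle (log2 −0.58 ± 0.22, adjusted p = 0.141). Cd3e read 752, 822, 565 and 641 with 2BE, against 817, 1085, 667 and 811 with vehicle (log2 −0.27 ± 0.16, adjusted p = 0.393). Cd28 and Cd4, which fell at 7 d, lay near 0 at 4 h. Cd4 read 442, 483, 336 and 377 with 2BE, against 538, 442, 321 and 457 with vehicle (log2 −0.091 ± 0.13, adjusted p = 0.76). The Cd8a probe set that was higher at 7 d read 122, 124, 115 and 103 with 2BE, against 155, 162, 138 and 132 with vehicle (log2 −0.34 ± 0.13, adjusted p = 0.145). Foxp3 again lay near the floor, at 32.5, 30.3, 25.2 and 32.5 with 2BE and 46.0, 35.9, 29.4 and 30.2 with vehicle.

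**Figure D4:**
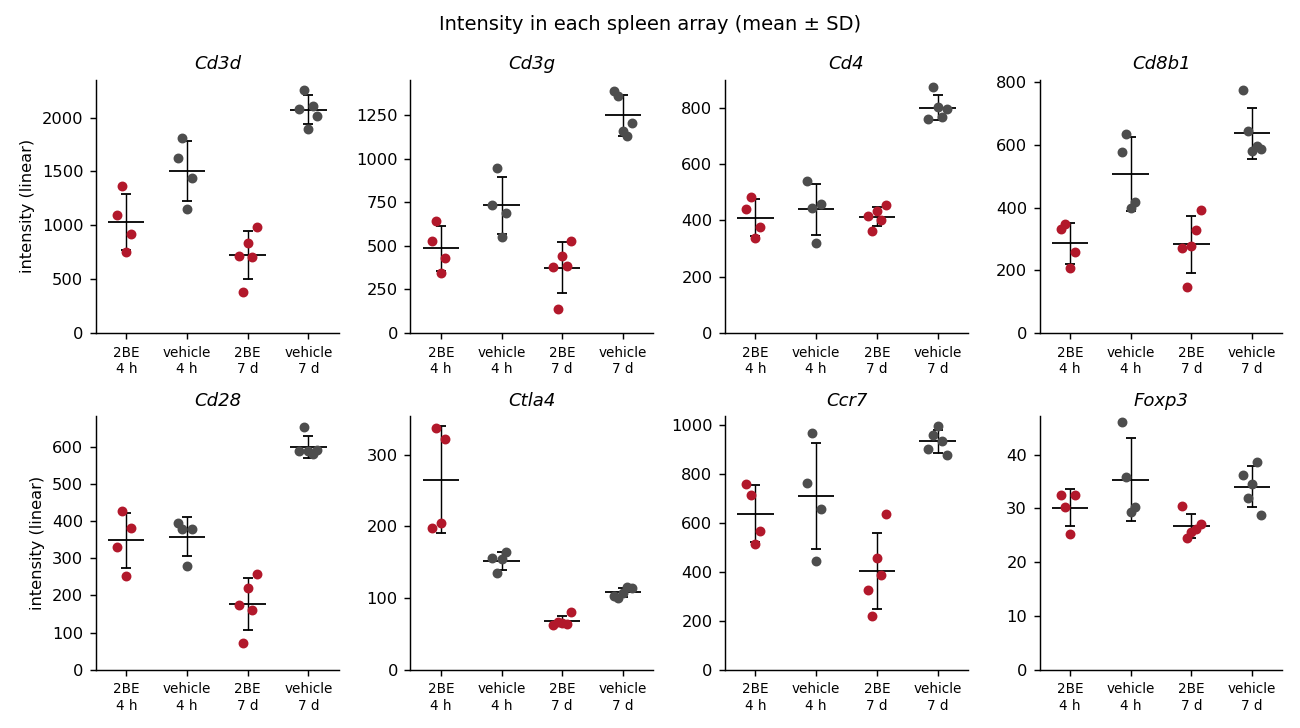
Intensity (linear vertical axes, from 0) in each spleen array for 8 T cell genes, 2BE in red and vehicle in grey, at 4 h (left pair) and 7 d (right pair), with mean ± SD. Levels compare within a time only; the groups separate at 7 d in all but Foxp3, and at 4 h Ctla4 is higher with 2BE.

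At 4 h the 2BE array of replicate 3 held the lowest 2BE value in 19 of the 30 T cell genes, and the vehicle array of replicate 3 the lowest vehicle value in 26. Replicate 2 held the highest value in 21 genes with 2BE and in 22 with vehicle. The mean log2 intensity of vehicle replicate 3 was also the lowest of the vehicle spleens for B cell genes (10.25) and the highest for erythroid genes (11.15) and neutrophil genes (13.18). Without that array, 6 T cell genes were lower (Cd5, Cd8b1, Gata3, Lat, Prkcq and Txk), where 2.07% of all genes were, and Ctla4 stayed the 1 called higher. Without 2BE replicate 3, 0 T cell genes were lower with limma, where 1.06% of all genes were, and 9 were lower at an unadjusted p under 0.05. The count was also 0 without 2BE replicate 1 or 4 or vehicle replicate 1 or 2 (8 to 14 at an unadjusted p under 0.05), and 2 without 2BE replicate 2. In the limma fit of all arrays, 15 of the 30 T cell genes had an unadjusted p under 0.05 in either direction. So did 3333 of all 18193 genes. With arrays weighted by their agreement with their group, 9 were lower: Cd247, Cd27, Cd3d, Cd5, Cd8b1, Lat, Prkcq, Thy1 and Txk, where 2.95% of all genes were lower. The 2BE array of replicate 3 at 4 h held a high adipocyte mean (10.66), and the adipocyte gene Fabp4 was called higher (log2 2.81 ± 0.73, adjusted p = 0.0289).

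Of the further T cell lists at 4 h, the partners of receptor signalling had 0 of 20 called with limma, with 5 at an unadjusted p under 0.05. Such a p was found for 3333 of all 18193 genes. Among the 16 activation and effector genes, Egr2 (1.96 ± 0.20), Nr4a1 (1.70 ± 0.20), both early response genes of stimulated lymphocytes and of other cells, and the cytokine gene Il10 (0.69 ± 0.13) were higher, and 2 were lower. One of these was Ifng, whose means of 17.5 with 2BE and 25.6 with vehicle were both below 27.6, the lower quartile at 4 h, near the floor of the arrays. Il10 averaged 44.1 with 2BE, against 26.6 with vehicle, the second also below that quartile. Of the 21 genes of differentiation and homing, 3 were lower and 1 was higher. Tbx21 (−0.95 ± 0.19, adjusted p = 0.00503), Izumo1r, the folate receptor 4 gene of regulatory T cells (−0.44 ± 0.12), and Zbtb7b, the factor of the CD4 lineage (−0.30 ± 0.071), were the lower ones, and Id2, a regulator that NK and myeloid cells also express, was the higher (0.92 ± 0.16, adjusted p = 0.00102). Also lower were the NK cell genes Ncr1 (−1.44 ± 0.18) and Gzma (−0.97 ± 0.20). B cell genes had 0 of 11 called, with 1 at an unadjusted p under 0.05 and a median of −0.33. In the 6 ratios at 4 h none passed the adjustment. The log2 ratio of Cd8b1 to Cd4 differed by −0.73, lower with 2BE, and its groups did not overlap. Its exact p of 0.0286 is the smallest that 4 arrays against 4 allow (adjusted p = 0.114). Over 12 tests, that p passes the adjustment only if most of the tests reach it. The lack of a call could therefore not decide whether this ratio changed.

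The response of the spleen differed between the times. The 7 d change minus the 4 h change was lower than 0 in 17 of the 30 genes and higher in 2, where 51.3% of all genes were called, 25.6% each way. The largest differences were those of Cd28 (−1.82 ± 0.35, limma adjusted p = 0.000441), Ctla4 (−1.43 ± 0.19, adjusted p = 1.69e-05), Cd3g (−1.26 ± 0.40, adjusted p = 0.0139), Cd2 (−1.24 ± 0.32, adjusted p = 0.00446) and Ccr7 (−1.18 ± 0.33, adjusted p = 0.00737). Ctla4 was the 1 gene called higher at 4 h and lower at 7 d. Cd4 (−0.86 ± 0.17) and Il2rb (−1.14 ± 0.22) were also among the 17, whereas Cd8b1 was not called (−0.41 ± 0.32, adjusted p = 0.284). Cd8a (0.82 ± 0.17) and Zap70 (0.54 ± 0.10) were the 2 higher. The count of lower genes was 10 without the 4 h 2BE replicate 2, where 24.4% of all genes were lower, and also 10 without the 4 h vehicle replicate 3, where 24.6% were.

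In the bone marrow at 7 d, 11 of the 30 genes were lower with 2BE and 0 were higher, where 20.1% of all genes were called, 10.7% lower and 9.40% higher. The median log2 fold change was −0.17, against 0.0067 over all genes. In 7 of the 30 genes every 2BE array lay below every vehicle array, as did 8.45% of all genes. Over all 55 probe sets of the 30 genes, 14 were called lower and 1 was called higher. The share over all probe sets was not computed for marrow. Of the 11, Cd2 read 143, 119, 129, 116 and 135 in the 2BE marrows, against 221, 214, 280, 311 and 258 in the vehicle marrows, a 1.98-fold fall (log2 −0.99 ± 0.097, n = 5 each, adjusted p = 1.86e-05). Il2ra, which stages of B and T cell development also express, read 56.0, 58.0, 49.4, 50.3 and 49.3 with 2BE, against 98.2, 97.0, 112, 100.4 and 111 with vehicle (1.95-fold, log2 −0.97 ± 0.065, adjusted p = 4.97e-06). Both separated the groups fully. Ccr7 read 125, 99.2, 98.3, 81.8 and 121 with 2BE, against 180, 198, 187, 212 and 193 with vehicle (1.86-fold, log2 −0.89 ± 0.098, adjusted p = 3.79e-05). S1pr1 read 144, 119, 121, 128 and 154 with 2BE, against 201, 206, 208, 223 and 235 with vehicle (1.61-fold, log2 −0.69 ± 0.076, adjusted p = 3.98e-05). These 4 genes had larger changes than the other 26. B lineage cells can express them too, but expression by B cells was not compared across the 30 genes. Its part in these changes was not tested.

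The receptor chains moved less in marrow. Cd3g read 45.1, 47.1, 48.5, 46.3 and 45.7 with 2BE, against 63.4, 68.7, 53.9, 58.1 and 63.9 with vehicle (1.31-fold, log2 −0.39 ± 0.063, adjusted p = 0.00062). It was called at a level below the median of all probe sets, 87.9. Cd3d read 798, 892, 775, 819 and 701 with 2BE, against 1083, 827, 844, 813 and 861 with vehicle (log2 −0.15 ± 0.083, adjusted p = 0.239). Cd3e read 163, 180, 192, 157 and 173 with 2BE, against 189, 184, 182, 175 and 195 with vehicle (log2 −0.099 ± 0.060, adjusted p = 0.283). The groups of both overlapped. Cd247 read 66.4, 59.8, 69.1, 62.4 and 66.9 with 2BE, against 66.0, 75.2, 65.5, 64.7 and 58.5 with vehicle (log2 −0.020 ± 0.066, adjusted p = 0.87).

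The coreceptors in marrow divided. Cd8b1 read 63.0, 48.7, 61.5, 69.5 and 69.3 with 2BE, against 80.2, 89.2, 80.8, 77.0 and 91.7 with vehicle (1.34-fold, log2 −0.43 ± 0.089, adjusted p = 0.00389). Cd4, which marrow macrophages and dendritic cells can also carry, read 208, 241, 238, 225 and 287 with 2BE, against 252, 284, 247, 235 and 260 with vehicle (log2 −0.096 ± 0.079, adjusted p = 0.443). Cd8a, on the same probe set as in spleen, read 141, 162, 177, 158 and 141 with 2BE, against 137, 161, 122, 126 and 143 with vehicle (log2 0.18 ± 0.083, adjusted p = 0.154). Its other probe sets lay between −0.20 and 0.29 in marrow. Foxp3 read 14.96, 18.3, 16.2, 17.1 and 19.99 with 2BE, against 17.9, 17.3, 17.5, 18.1 and 16.4 with vehicle (log2 −0.018 ± 0.069). Neither was called, both pairs of groups overlapped, and Foxp3 lay under the lower quartile of all genes in marrow. The other 5 of the 11 were Thy1 (−0.43 ± 0.11), Bcl11b (−0.36 ± 0.093), Cd27 (−0.28 ± 0.074), Txk (−0.24 ± 0.071) and Il2rb (−0.23 ± 0.072). The last 2 lost their call under some other settings.

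**Figure D5:**
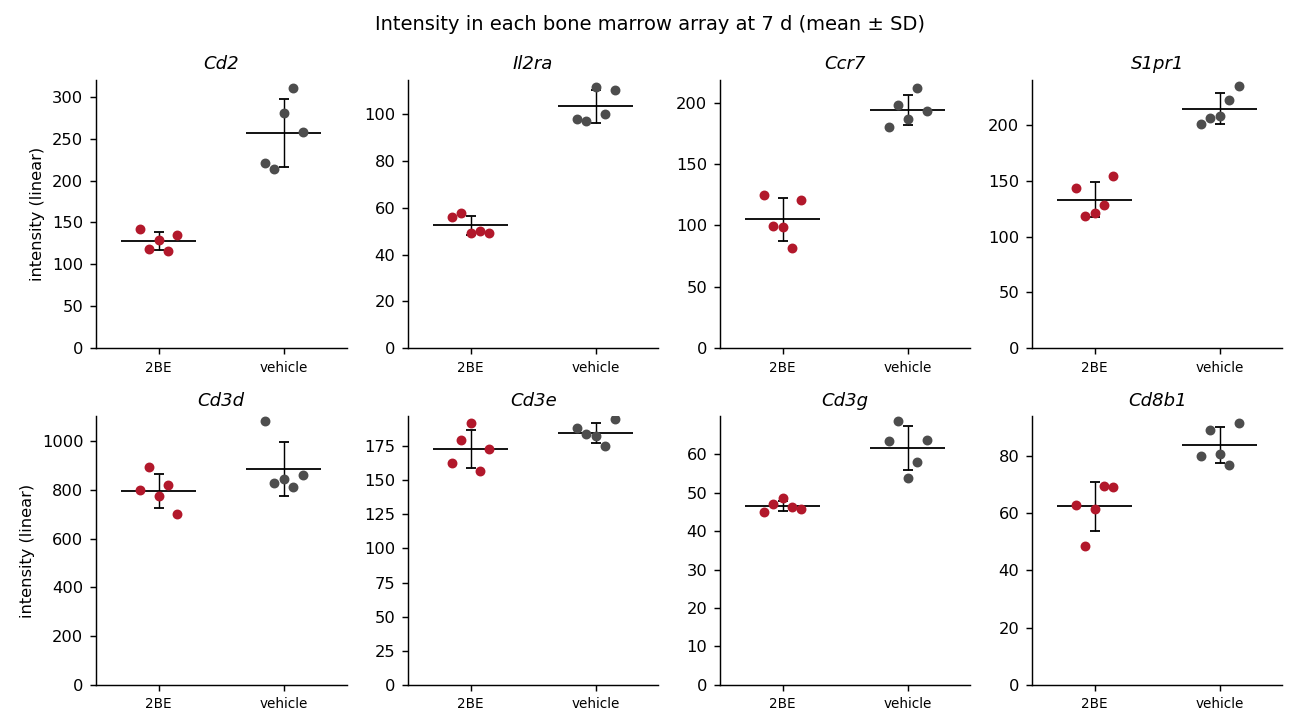
Intensity (linear vertical axes, from 0) in each bone marrow array at 7 d for 8 T cell genes, 2BE in red and vehicle in grey, with mean ± SD. The groups separate in Cd2, Il2ra, Ccr7, S1pr1, Cd3g and Cd8b1 and overlap in Cd3d and Cd3e.

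Genes of other lymphoid cells fell in the same marrows. B cell genes were lower in 11 of 11, with a median of −1.17, and their summed intensity was 3893 to 5665 with 2BE and 10378 to 12552 with vehicle. Of the 6 genes in a list of thymocyte genes, some shared with developing B cells, 5 were lower, with a median of −0.88. Among them were the recombinase genes Rag1 (−1.92 ± 0.23) and Rag2 (−1.09 ± 0.12) and Dntt, which adds bases at the joins (−1.06 ± 0.13). Developing B cells also express Rag1, Rag2 and Dntt. NK cell genes were lower in 1 of 8 and erythroid genes higher in 8 of 10 (median 0.47). The 30 T cell genes summed to 4554 to 4795 with 2BE and 5177 to 5643 with vehicle. The part of the B lineage in the 11 calls was not tested. Of the further T cell lists, 8 of 20 signalling partners were lower, led by Rasgrp1 (−1.13 ± 0.11), 9 of 21 differentiation and homing genes, led by the interleukin 7 receptor gene Il7r (−1.19 ± 0.17), and 1 of 16 activation genes, Cd69 (−0.55 ± 0.099).

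Set against the spleen at 7 d, the change in marrow was higher in 23 of the 30 genes, that is, less negative for most of them, and lower in 3, where 44.9% of all genes were called, 25.0% higher and 19.9% lower. The largest differences, marrow minus spleen, were those of Cd28 (1.69 ± 0.26, limma adjusted p = 4.46e-06), Cd3g (1.47 ± 0.27, adjusted p = 6.91e-05), Cd3d (1.43 ± 0.20, adjusted p = 1.50e-06), Cd247 (1.38 ± 0.20, adjusted p = 1.50e-06) and Cd27 (1.23 ± 0.26, adjusted p = 0.000278). Across the alternative settings the difference of Cd247 ran from 0.54 to 1.45. Cd28 was dim in marrow, at 23.6 to 31.8 with 2BE and 26.6 to 39.0 with vehicle, near the lower quartile of all marrow probe sets, 31.3. Ccr7 (0.40 ± 0.23, adjusted p = 0.156) and S1pr1 (0.38 ± 0.22, adjusted p = 0.153) were not called. Il2ra fell in marrow and was not called in spleen, and the difference was called (marrow minus spleen −0.77 ± 0.10, adjusted p = 4.70e-07). Zap70 (−0.39 ± 0.10) and Ubash3a (−0.30 ± 0.10) were the other 2 called lower.

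In the liver, 0 of the 30 genes were called at either time with limma, where 4.51% of all genes were called at 4 h (1.27% lower, 3.24% higher) and 0.748% at 7 d (0.242% lower, 0.506% higher). At an unadjusted limma p under 0.05 there were 2 of the 30 at 4 h and 3 at 7 d, against 3217 and 2065 of all 18193 genes. Median log2 fold changes were −0.038 and −0.036. The smallest p at both times was that of S1pr1, which liver endothelium is known to express strongly. At 4 h it read 320, 274, 346 and 299 in the 2BE livers, against 368, 350 and 444 in the vehicle livers (log2 −0.32 ± 0.11, adjusted p = 0.116). At 7 d it read 266, 250, 305, 292 and 250 with 2BE, against 385, 370, 308 and 313 with vehicle (log2 −0.33 ± 0.096, adjusted p = 0.129). The groups did not overlap at either time, though the change was not called.

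Of the CD3 chains in liver, Cd3g and Cd247 lay below the median of all probe sets at both times and Cd3d did so at 7 d, whereas Cd3e lay above it at both. At 4 h Cd3e read 68.2, 74.5, 65.5 and 71.3 with 2BE, against 73.9, 79.3 and 64.4 with vehicle, and at 7 d 99.1, 114, 95.7, 95.9 and 99.1 with 2BE, against 98.1, 102, 113 and 99.1 with vehicle. Cd3g lay between 12.1 and 14.5 with 2BE and between 12.4 and 16.2 with vehicle at 4 h, where the lower quartile over all probe sets was 17.3. These groups overlapped. Cd3d read 41.8, 42.8, 51.4 and 44.4 with 2BE at 4 h, against 52.4, 53.5 and 52.4 with vehicle, with no overlap and no call (log2 −0.23 ± 0.093, adjusted p = 0.208). At 7 d it read 35.9, 39.5, 36.7, 33.7 and 42.4 with 2BE, against 38.6, 48.9, 38.6 and 41.1 with vehicle, and the groups overlapped. Cd4 read 72.1, 85.0, 75.1 and 70.0 with 2BE at 4 h, against 72.1, 72.1 and 73.0 with vehicle. Cd8a, Cd8b1, Cd247 and Foxp3 also had overlapping groups at both times, with log2 fold changes from −0.14 to 0.065. Some low probe sets of the liver had identical values in all arrays of a group (Skap1 in the vehicle livers at 4 h and Bcl11b in those at 7 d), so their spread is not a measure of variation between livers. Of the further lists, Foxo1 (0.91 ± 0.17) and Tox (0.81 ± 0.21) were higher at 4 h, and Id2 (−1.29 ± 0.29) and Id3 (−1.19 ± 0.23) were lower at 7 d, all regulators that hepatocytes or other liver cells may also express. The macrophage genes Marco (2.19 ± 0.43) and Cd68 (0.80 ± 0.17) were higher at 7 d.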

How the data were processed

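Intensity per probe set was taken from 1 table as the authors deposited it. Per the submitters' processing notes it was made with RMA, with no version in the sources used here; RMA corrects background, normalizes arrays by quantiles and summarises probes. Values were linear, from 6.16 to 47797.8, with 0 missing. Array medians (spleen 86.9 to 89.1 at 4 h and 109 to 112 at 7 d, marrow 86.1 to 89.4, liver 41.2 to 42.4 at 4 h and 50.0 to 52.2 at 7 d) formed 5 sets, which may have been normalized separately. No batch was named in the sources used here, and precision is limited by the number of arrays.

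The table held 45101 probe sets, of which 64 were controls and were not used. The platform annotation gave 34945 of the rest 1 gene symbol, 932 several and 9160 none, and only the first kind was used. Values were analysed as log2(intensity + 1), which understates the change of low genes. Limma 3.58.1 in R 4.3.3 was fitted on group means with eBayes, without trend or robust option: 4 spleen groups, 4 liver groups or 2 marrow groups in a fit, and all 6 groups at 7 d for marrow minus spleen. Tests were two-sided, with Benjamini-Hochberg adjustment over 18193 genes and a threshold of 0.05. Gene ratios were tested by exact permutation in scipy 1.17.1. The fits were tested on simulated data with 200 changed genes.

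The T cell genes and the other lists were chosen with earlier results of these data known. Values in every array are given for Cd3d, Cd3e, Cd3g, Cd247, Cd4, Cd8a, Cd8b1 and Foxp3, for up to 12 T cell genes with the largest called change in spleen at 7 d, 8 at 4 h and 4 each in marrow and liver (in liver some are given by range); of each other list, up to 4 called genes with the largest change could be named. The liver values of S1pr1 were added after they were seen, as were those named for their probe sets.

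Replicate numbers recur in both arms. Deviations of same-numbered arrays correlated at 0.132 to 0.282 in the 3 pairs of liver at 4 h, and elsewhere not every pair reached 0.1. The labels state no pairing. All liver values given above at 4 h come from the fit without pairing, and the replicate block was run only as an alternative. Alternatives were a pseudocount of 16 or none, a filter on low values, a further quantile normalization, a fit of the arrays compared alone, array weights, the mean of a gene's probe sets, the replicate block, and leaving out each array.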

Additional observations from a re-analysis of the deposited data

Results flagged for a closer look

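Of 76 groups of spleen or marrow arrays of the T cell genes given array by array, 7 held a value far from the rest by Dixon's test on log2 values, which flags about 1 group in 20 by chance. In the 2BE spleens at 7 d, 5 of them were low values of replicate 2: Cd3e at 498, Cd3g at 136, Cd247 at 101, Thy1 at 164 and Cd27 at 46.4. The others were high values of vehicle arrays, Cd28 at 652 in replicate 2 of the 7 d spleens and Cd3d at 1083 in replicate 1 of the marrows. Without 2BE replicate 2, the count of T cell genes called lower in the spleen at 7 d was 25, as with it.

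The test of the difference between 2 responses, in limma, picked out the following. Between 7 d and 4 h in the spleen, the change differed for Cd28 (−1.82), Ctla4 (−1.43), Cd3g (−1.26), Cd2 (−1.24) and Ccr7 (−1.18). Between marrow and spleen at 7 d it differed for Cd28 (1.69), Cd3g (1.47), Cd3d (1.43), Cd247 (1.38) and Cd27 (1.23), marrow minus spleen. In all, 19 and 26 of the 30 genes passed these tests, where 51.3% and 44.9% of all genes did.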

How the results depend on the processing

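In the spleen at 7 d the count of lower T cell genes was 25, and that of higher ones 2, with any 1 array left out. The 2 higher were 0 with the mean of a gene's probe sets and 1 with the probe set of highest mean linear intensity, an alternative chosen after seeing the data. Under these settings Cd8a reversed to −0.56 and −0.996, and Zap70 to −0.21 with the mean. In marrow the 11 lower genes were 6 under the filter on low values, which tests 14 of the 30 genes, and 9 to 12 with 1 array left out, with 0 to 1 higher (1 without vehicle replicate 2). At 4 h in the spleen the count of 1 lower gene became 0 with a pseudocount of 16 or with the 2 arms alone. It was 2 with the filter or the replicate block, and 3 with quantile normalization or the mean of probe sets. With array weights it was 9, where 2.95% of all genes were lower. With 1 array left out it ran from 0 to 6. The 6 came without vehicle replicate 3, where 2.07% of all genes were lower. The 1 higher gene was 0 with the 2 arms alone and 1 with any array left out. In liver quantile normalization gave 1 lower gene at 4 h, and the counts were 0 in all leave-one-out fits. For 7 d minus 4 h, the 17 lower were 10 with quantile normalization and 10 to 21 with 1 array left out, and the 2 higher were 1 with either other probe set choice and 2 to 3; Cd8a reversed to −0.40 with the linear mean. For marrow minus spleen the counts were 3 to 4 lower and 23 to 25 higher, and Zap70 reversed to 0.21 with the mean. The 2 ratios called at 7 d were 0 with the mean of probe sets. They were 0 to 0 with 1 array left out, where 4 arrays against 5 cannot pass the adjustment, so this says nothing about stability. The replicate block left 0 genes called in the liver at 4 h, as in the fit without it. Of the other counts it moved that of lower genes in the spleen at 4 h by over 1.5 times. There, where same-numbered deviations correlated at −0.38 to 0.54, it called Cd8b1 and Lat lower. The cause of these changes was not tested. Low signal limits marrow and liver, where over 15 of the 30 genes lay below the median of all probe sets.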
